A study of Mus musculus with 12 samples.

Results

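The Dlx genes described here are 4 homeobox genes, Dlx1, Dlx2, Dlx5 and Dlx6, and 2 noncoding RNAs transcribed across them from the other strand, Dlx1as and Dlx6os1. These 6 rows, of 49489 in the total RNA table of a Gas5 pulldown, were chosen by name, with values of the same antisense against sense comparison in view, among them those of Dlx1. Their differences between the groups are therefore given as a description, with no test.

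The libraries were made from primary mouse hippocampal neurons, prepared from pups on postnatal day 0 and grown for 16 days in vitro. Total RNA recovered by pulling down Gas5, which is a long noncoding RNA, was sequenced in 3 libraries called antisense and 3 called sense. The labels name no strain, genotype or treatment, do not say which of the names marks the capture and which the control, and leave out whether replicates were separate cultures, so errors and p-values measure only how far these libraries spread, and that spread may be technical. Small RNA libraries of the same series were not used here.

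DLX proteins are homeodomain transcription factors that direct the birth, migration and differentiation of GABAergic neurons of the forebrain, including the interneurons that settle in the hippocampus. Their genes lie in pairs that are transcribed towards each other, Dlx1 with Dlx2 and Dlx5 with Dlx6, with enhancers shared between the members of a pair. Dlx6os1, also known as Evf2, starts from such an enhancer and is known to bring DLX proteins to the Dlx5/Dlx6 locus, while Dlx1as is a natural antisense RNA of Dlx1.

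In the RefSeq table of assembly GRCm38.p6, Dlx1 lies on chromosome 2 from 71528113 to 71533981 and Dlx2 on the same chromosome from 71543408 to 71546754. Dlx1as runs from 71530638 to 71537891, so that it covers 3344 bp, or 57.0%, of the Dlx1 span and ends 5516 bp short of Dlx2. Dlx6 lies on chromosome 6 from 6863334 to 6867970, wholly inside the span of Dlx6os1 (6820543 to 6871627), and Dlx5 lies from 6877801 to 6882068, 6173 bp beyond the end of Dlx6os1. Of the 4 coding members, Dlx1 and Dlx6 overlap a noncoding gene in that table and Dlx2 and Dlx5 overlap no gene. Dlx6 also holds a further noncoding gene, Dlx6os2, whose 1354 bp lie wholly inside it and which has no count row of its own. Positions are of whole genes, exons and introns together.

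The stretches of 250 bases before an annotated start are shown for the 3 members that the RefSeq promoter table of GRCm38.p6 holds, since they set Dlx1 beside its neighbour Dlx2 and beside Dlx6os1, the RNA that runs across Dlx6. Dlx1as, Dlx5 and Dlx6 were not matched. The Dlx1 window and both Dlx6os1 windows lie inside the gene spans given above, which begin further upstream. They therefore show sequence before an internal start, and only the Dlx2 window lies outside the span of its gene. The windows were searched for TAATTA, a core motif bound by many homeodomain proteins, and for CACGTG, an E-box. Each motif reads the same on both strands, they do not overlap in these windows, and capitals mark them. Each sequence is written 5′ to 3′ on the strand of its gene.
Dlx1, chr2:71529195-71529444, plus strand: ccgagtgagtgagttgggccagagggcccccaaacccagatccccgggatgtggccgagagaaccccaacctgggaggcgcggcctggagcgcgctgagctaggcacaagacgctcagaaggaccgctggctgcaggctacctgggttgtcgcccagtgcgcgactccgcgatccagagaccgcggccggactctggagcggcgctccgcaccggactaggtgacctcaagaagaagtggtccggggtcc
Dlx2, chr2:71546755-71547004, minus strand: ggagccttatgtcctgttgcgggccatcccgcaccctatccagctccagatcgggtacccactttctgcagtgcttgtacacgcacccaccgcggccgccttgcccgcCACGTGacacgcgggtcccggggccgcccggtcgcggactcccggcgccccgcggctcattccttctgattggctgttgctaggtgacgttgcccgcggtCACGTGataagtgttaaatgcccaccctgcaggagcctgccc
Dlx6os1, chr6:6869534-6869783, minus strand: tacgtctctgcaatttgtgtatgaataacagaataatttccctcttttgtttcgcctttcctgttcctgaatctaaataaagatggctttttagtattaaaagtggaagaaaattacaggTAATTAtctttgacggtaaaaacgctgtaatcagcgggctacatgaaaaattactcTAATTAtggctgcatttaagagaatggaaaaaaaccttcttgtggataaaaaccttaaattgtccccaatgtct
Dlx6os1, further start, chr6:6861684-6861933, minus strand: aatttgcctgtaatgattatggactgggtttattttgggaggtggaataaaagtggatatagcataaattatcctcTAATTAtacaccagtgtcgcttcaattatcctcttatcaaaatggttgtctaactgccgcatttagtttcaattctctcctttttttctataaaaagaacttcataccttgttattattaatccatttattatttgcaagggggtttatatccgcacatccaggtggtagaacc

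TAATTA stood 2 times before the start of Dlx6os1 at 6869533, at 130 and 74 bases from it, and 1 time before its start at 6861683, at 174 bases. The start at 6861683, on the minus strand, lies past Dlx6, so RNA from it does not cross Dlx6. TAATTA was not in the windows of Dlx1 and Dlx2. Of 32851 such windows in the table, 4.84% hold TAATTA and 6.02% hold CACGTG, which was found 2 times in the Dlx2 window, 142 and 42 bases before the start. The Dlx1 and Dlx2 windows are rich in G and C (68.0% and 66.4%, against a median of 52.4% over all windows), and those of Dlx6os1 are poor in them (33.2% and 34.0%).

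Levels are given as CPM, counts brought to a common library size, after scaling by TMM, a method that sets library factors so that most genes do not shift between libraries. Gas5 itself averaged 90940 ± 21190 CPM in the antisense and 623700 ± 306600 CPM in the sense libraries (SD, n = 3 each), with totals of 5775052 to 6293093 counts per antisense library and 6478779 to 10424167 per sense library. Gas5 took 32.66 to 57.13% of the counts in sense libraries, against 9.71 to 14.2% in antisense, which left fewer for other genes in sense. The effective sizes after TMM were smaller in sense (5838607 to 6417995) than in antisense (7464277 to 7786867). The sense libraries also had a count for fewer genes (25416 to 26006, against 29850 to 30675 in antisense). Neuronal markers were present in every library, with a summed level over 6 of 6 listed markers of 739 to 944 CPM in antisense and 933 to 1163 CPM in sense, and so were those of GABAergic neurons (Gad1, Gad2 and Slc32a1 together 85.2 to 120.0 CPM in antisense and 119 to 163 CPM in sense). Markers of astrocytes were also present (1010 to 1274 CPM in antisense and 1183 to 1531 CPM in sense). So were those of the oligodendrocyte lineage (295 to 341 CPM in antisense and 339 to 458 CPM in sense), so these were mixed cultures. In RNA pulled down from mixed cells, the number of cells of a type, the RNA per cell and what each pulldown recovered cannot be told apart. Microglia markers, all 5 in the table and none at 0 throughout, summed to 16.8 to 20.1 CPM in antisense and 8.46 to 11.0 CPM in sense, and the part of this, of the Gas5 share and of the number of genes counted in the differences below was not tested.

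Within each pair, the Dlx gene that lies under a noncoding RNA had more counts in the antisense libraries. The values of its partner and of the noncoding RNA overlapped between the groups. That overlap does not show that Dlx2 differed from Dlx1, since Dlx2 summed to only 9 antisense and 6 sense counts. Antisense libraries all above all sense libraries were also common, at 23.5% of all tested genes. Dlx1 was 4.61-fold and Dlx6 3.49-fold higher in antisense, the group with less Gas5. The estimate for Dlx6os1 lay at -0.05 on the log2 scale. Whether the counting used strand is not given in the sources used here, so reads of Dlx1 and Dlx1as, or of Dlx6 and Dlx6os1, may have been split between the rows.

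Dlx1, a DLX factor that stays on in subsets of mature interneurons, had 81.95, 70.6 and 63.8 estimated counts in antisense replicates 1, 2 and 3 and 10.01, 16.3 and 11.7 in the sense replicates. On the CPM scale these were 10.8, 9.06 and 8.55 in antisense and 1.58, 2.55 and 2 in sense. The lowest antisense library thus lay well above the highest sense library, and the spread within a group (highest over lowest 1.26 in antisense and 1.61 in sense) was small against the gap. The group means were 9.46 ± 1.17 and 2.04 ± 0.483 CPM (SD, n = 3 each), with a log2 fold change of 2.20 (SE 0.261) in the edgeR fit over all genes.

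Dlx2, the partner of Dlx1 and needed with it for interneuron differentiation, was barely counted. It had 3, 2 and 4 counts in antisense and 1, 2 and 3 in sense, which overlapped. Summed over the libraries and scaled, the ratio of antisense to sense counts was 1.22, with a 95% exact interval of 0.388 to 4.16. These intervals cover counting error only. The one of Dlx2 holds both a value of no difference and part of the range found for Dlx1 (4.63, interval 3.26 to 6.71), so that at this depth a difference in Dlx2 was not detectable.

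Dlx1as, transcribed across the 3′ part of Dlx1, had 13.5, 14.6 and 8.18 counts in antisense and 10, 8 and 3 in sense. Its CPM values were 1.77, 1.87 and 1.10 against 1.58, 1.25 and 0.514, so that 2 of the 3 antisense libraries lay above all sense libraries and the groups overlapped. The scaled count ratio was 1.40 (interval 0.792 to 2.51). This interval leaves out the spread between libraries, so Dlx1as was not tested against Dlx1. Scaled by library totals alone, the ratio was 2.38 for Dlx1as and 2.07 for Dlx2.

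Dlx6, the DLX gene inside Dlx6os1, followed Dlx1. It had 114, 95.8 and 92.2 counts in antisense and 25.9, 20.5 and 23.8 in sense, or 15.0, 12.3 and 12.35 CPM against 4.09, 3.19 and 4.07 CPM. All antisense libraries lay above all sense libraries, and within either group the libraries differed little (highest over lowest 1.22 in antisense and 1.28 in sense). Group means were 13.2 ± 1.56 and 3.79 ± 0.516 CPM (SD, n = 3 each), with a log2 fold change of 1.80 (SE 0.212).

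Dlx5, which encodes the partner factor at that locus, had few counts, with 12, 6 and 4 in antisense and 5, 9 and 11 in sense. Its CPM values of 1.58, 0.771 and 0.536 in antisense and 0.791, 1.40 and 1.88 in sense overlapped, with no antisense library above all sense libraries. The scaled ratio was 0.715 (interval 0.385 to 1.32), where that of Dlx6 was 3.50 (interval 2.70 to 4.62). Both intervals leave out the spread between libraries and are no test of Dlx5 against Dlx6. Scaled by library totals alone, the Dlx5 ratio was 1.21, so its direction depends on the scaling.

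Dlx6os1 was counted best of the 6. It had 114, 160 and 115 counts in antisense and 117, 120 and 90.8 in sense, or 15.0, 20.6 and 15.5 CPM against 18.5, 18.7 and 15.6 CPM. The highest value was in antisense replicate 2 and the lowest in antisense replicate 1, and the sense libraries lay between them. Group means of 17.01 ± 3.08 and 17.6 ± 1.75 CPM (SD, n = 3 each) gave a log2 fold change of -0.05 (SE 0.158). The scaled count ratio was 0.967 (interval 0.835 to 1.13).

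**Figure D1:**
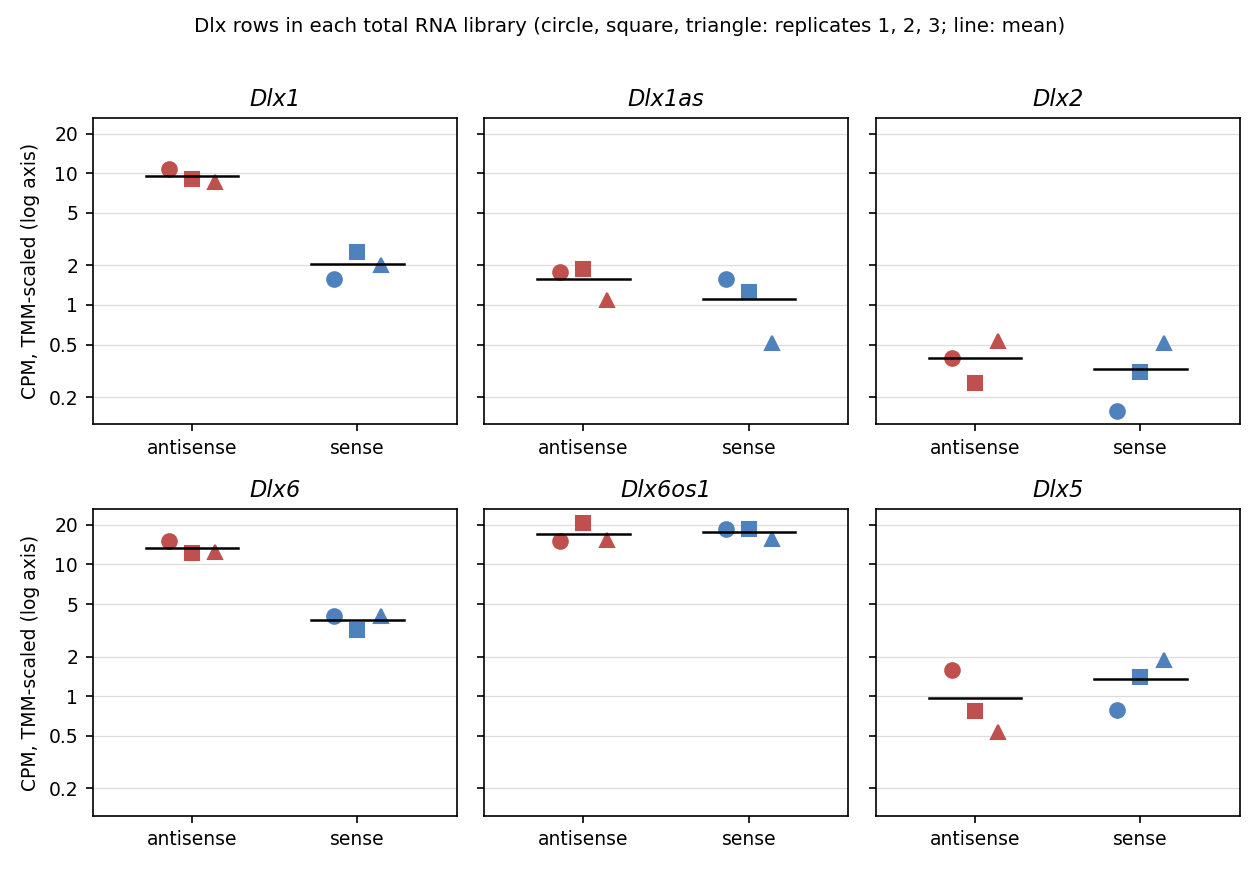
Level of each Dlx row in CPM (log axis) in the 3 antisense and 3 sense libraries, with a point per library and a line at the group mean. Dlx1 and Dlx6 stand apart between the groups (means of 9.46 against 2.04 CPM and of 13.2 against 3.79 CPM), and the points of Dlx1as, Dlx2, Dlx5 and Dlx6os1 overlap.

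A filter on low counts kept 20049 genes for the fit over all genes and 3 of the 6 members. Dlx6 and Dlx6os1 reached the cutoff (1.57 CPM on library totals, needed in 3 libraries) in every library. Dlx1 reached it in 3 antisense and 2 sense libraries, and so passed through the antisense group, where it is high. Dlx1as reached it in 2 libraries, Dlx5 in 1 and Dlx2 in 0, and these were not fitted. With no filter beyond a count above 0, their log2 fold changes were 0.47 (SE 0.502), -0.49 (SE 0.554) and 0.26 (SE 0.971). Past the threshold of the fit, an adjusted p of 0.05, lay 2 members on the higher side and 0 on the lower side, where 18.2% of all tested genes were higher and 4.35% lower. For 2 of the 6 members all antisense libraries lay above all sense libraries, which held for 23.5% of all tested genes. Since this comparison was in view when the members were chosen, nothing is read from these shares.

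**Figure D2:**
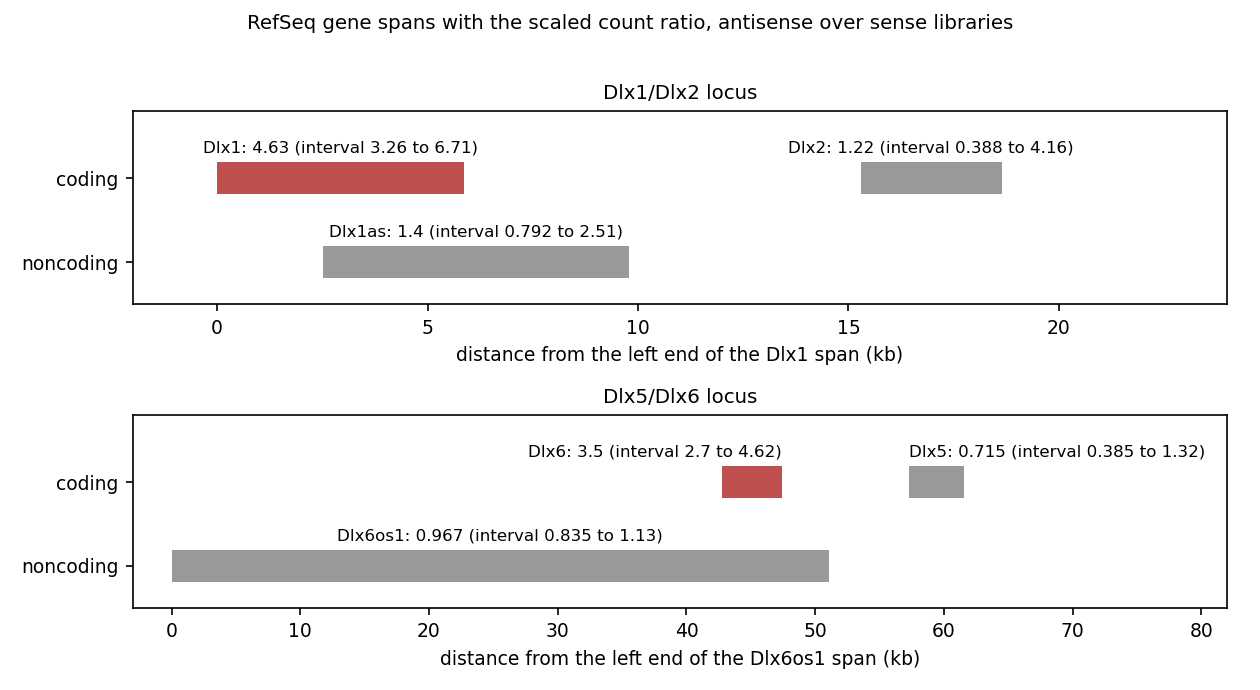
RefSeq spans of the Dlx genes as distance in kb from the left end of the Dlx1 span (top) and of the Dlx6os1 span (bottom), coding genes above and noncoding genes below, each with its scaled count ratio of antisense over sense libraries and 95% exact interval. Dlx1 and Dlx6, in red, overlap the span of a noncoding gene and have ratios of 4.63 and 3.50, and the intervals of the 4 grey genes hold 1. The interval of Dlx2 (0.388 to 4.16) also reaches into that of Dlx1 (3.26 to 6.71).

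Ratios between rows of the same library do not depend on how libraries are scaled. They depend on the lengths of the RNAs, so only their differences between libraries are described. Where counts are few, the 1 added to each draws the log2 ratio towards 0, so such ratios also depend on depth. The log2 ratio of Dlx6os1 over Dlx6 counts, with 1 added to each count, was 0.00, 0.73 and 0.32 in antisense and 2.13, 2.49 and 1.89 in sense. All antisense libraries lay below all sense libraries, by 1.82 on the log2 scale between the means (0.35 ± 0.369 and 2.17 ± 0.304, SD, n = 3 each), a 3.53-fold difference. As a share of the counts of both rows together, Dlx6 made up 44.0% ± 6.30 in antisense and 17.8% ± 3.10 in sense (SD, n = 3 each). Together the rows averaged 30.2 ± 2.53 CPM in antisense against 21.4 ± 1.54 CPM in sense.

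For Dlx1as over Dlx1 the log2 ratios were -2.52, -2.20 and -2.82 in antisense and 0.00, -0.95 and -1.66 in sense. The groups again did not overlap, but the sense libraries were spread widely (SD 0.834, against 0.310 in antisense), with as few as 3 counts of Dlx1as in sense replicate 3. The means differed by -1.64, or 3.12-fold.

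Between the coding partners, Dlx1 over Dlx2 had log2 ratios of 4.37, 4.58 and 3.70 in antisense and 2.46, 2.53 and 1.66 in sense, a difference of 2.0 between the means. Dlx6 over Dlx5 had 3.15, 3.79 and 4.22 in antisense and 2.16, 1.10 and 1.05 in sense, a difference of 2.28. All antisense libraries lay above all sense libraries in both ratios. With 1 to 4 counts of Dlx2 in a library, the ratio of Dlx1 over Dlx2 mainly follows Dlx1. It does not show that the partners differed, since Dlx2 was barely counted. Neither of these ratios was tested.

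The rows that differed between groups, Dlx1 and Dlx6, lie on different chromosomes, and their ratio was nearly the same in all antisense libraries. Dlx6 over Dlx1 had log2 values of 0.47, 0.44 and 0.52 there (SD 0.0439) and of 1.29, 0.31 and 0.97 in sense (SD 0.499), where both had few counts. The antisense values lay inside the range of the sense values. This ratio was chosen after the values were seen. With only 63.8 to 81.95 counts of Dlx1 per antisense library, counting error is larger than the spread seen there. Nothing is therefore read from the closeness of the antisense values.

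**Figure D3:**
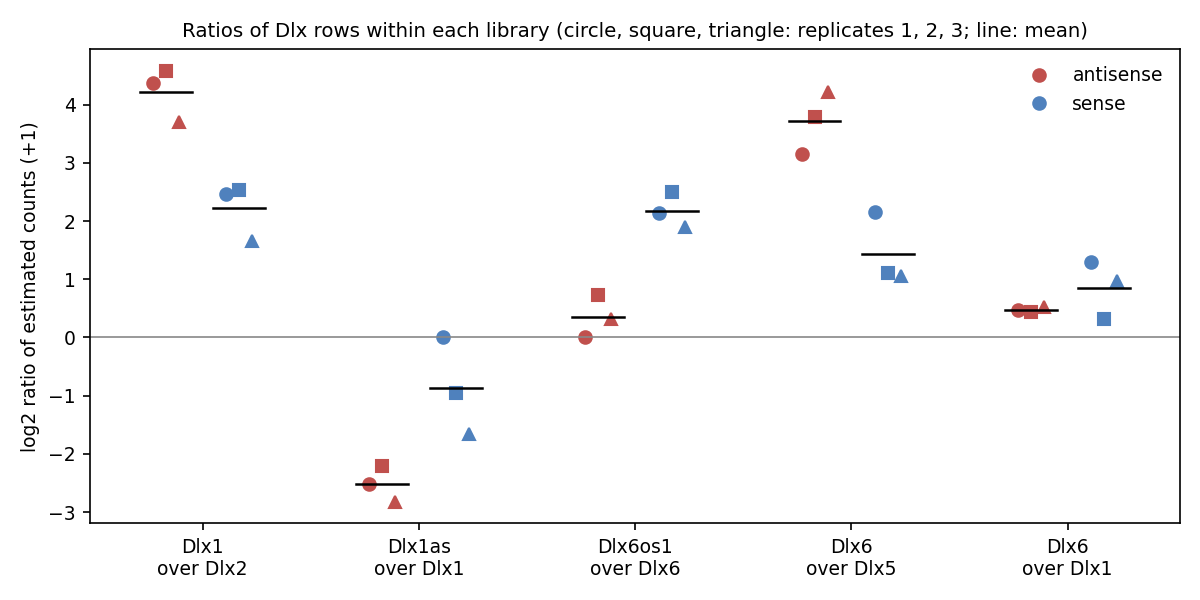
Log2 ratio of the estimated counts (1 added) of 2 Dlx rows in each library, with a line at the group mean. The antisense and sense libraries do not overlap for Dlx1 over Dlx2, Dlx1as over Dlx1, Dlx6os1 over Dlx6 and Dlx6 over Dlx5 (differences of 2.0, -1.64, -1.82 and 2.28), and they overlap for Dlx6 over Dlx1.

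The authors' deposited table gives the same comparison the other way round, sense over antisense. In it the log2 fold changes were -2.23 (SE 0.393) for Dlx1 and -1.84 (SE 0.312) for Dlx6. The authors' deposited table has values nearer 0 for the other members, with 0.05 (SE 0.219) for Dlx6os1, -0.44 (SE 0.726) for Dlx1as, -0.27 (SE 1.31) for Dlx2 and 0.50 (SE 0.783) for Dlx5. Turned round, the direction of each is that found here.

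Of 20 other RefSeq genes within 250 kb of a member, 13 had a row in the table and 7 were tested, of which 1 was higher in antisense and 6 did not pass. Since 18.2% of all tested genes were higher, this count is not read as a result about the neighbours. Metap1d, a mitochondrial methionine aminopeptidase gene that ends 2918 bp before Dlx1, averaged 15.1 ± 0.290 CPM in antisense against 16.5 ± 0.726 CPM in sense (SD, n = 3 each; log2 fold change -0.13, SE 0.137). Hat1, which encodes a histone acetyltransferase, changed by -0.14 (SE 0.176), and Sdhaf3, an assembly factor gene of respiratory complex II 73902 bp from Dlx5, by 0.14 (SE 0.281), neither past the threshold. The 3 remaining tested genes, farther away, lay between -0.18 and -0.10.

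The neighbour that passed was the noncoding gene Gm20618, 137964 bp from Dlx6os1. It had 18, 19 and 27 counts in antisense and 0, 0 and 1 in sense (edgeR adjusted p = 3.46e-05), and so passed the filter on low counts only through the antisense group, where it is high. Its scaled count ratio was 52.0 (95% exact interval 9.01 to 2087). Nearly all of its counts thus came from the antisense libraries. The pseudogenes Gm5873 and Gm13642 had too few counts to be tested, and Dlx6os2, Gm22155, Gm36857, Gm34871, Gm52890 and Gm36909 were not analysed here.

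Transcription factors that act before, beside or after the DLX proteins in GABAergic neurons were measured through 28 listed genes. Of these, 21 were tested, and 0 passed in either direction (edgeR; 0 higher and 2 lower at an unadjusted p under 0.05, and 0 by DESeq2), where 18.2% of all tested genes were higher and 4.35% lower. Their log2 fold changes ran from -0.34 to 0.28 with a median of -0.13, against -0.01 over all tested genes. Those with the smallest p were Etv1 (-0.28, SE 0.121), Npas3 (-0.20, SE 0.0869) and Tshz1 (-0.26, SE 0.182), none past the threshold. Lhx6, a factor of interneurons from the medial ganglionic eminence, averaged 5.42 ± 0.377 CPM in antisense against 4.43 ± 0.557 CPM in sense (SD, n = 3 each) and did not pass. It is named after its values were seen. In that list, Dlx3 had no count in any library, and Dlx4 had 7.63 counts over the antisense libraries and 1 over the sense libraries, a ratio of 6.21 with an interval of 0.872 to 289.

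Genes that mark GABAergic neurons themselves were, where they passed, lower in antisense, the direction opposite to that of Dlx1 and Dlx6. This direction was not particular to them. Summed markers of hippocampal excitatory neurons were also lower in antisense (1290 to 1396 CPM, against 1444 to 1567 CPM in sense), while those of microglia were higher. The excitatory sum is made up mostly of Zbtb20, and of its 6 markers 1 passed as lower and 0 as higher. Of 24 listed GABAergic neuron genes 17 were tested, of which 0 were higher, 3 were lower and 14 missed the threshold. Over all tested genes 18.2% were higher and 4.35% lower. The median of the list was -0.33. Ndnf, a gene of neurogliaform interneurons, was lower (11.4 ± 1.56 against 18.2 ± 1.35 CPM, SD, n = 3 each; log2 fold change -0.67, SE 0.156; edgeR adjusted p = 0.00458) and passed whichever library was left out. Reln, which encodes the secreted protein reelin, was lower by the same test (-0.56, SE 0.175; edgeR adjusted p = 0.0306), a call lost without antisense replicate 3, sense replicate 1 or sense replicate 3.

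Gad1 and Gad2, the GABA-synthesizing enzyme genes that DLX factors are known to activate, did not pass (-0.33, SE 0.138, and -0.34, SE 0.149). Gad1 averaged 74.4 ± 13.1 CPM in antisense against 93.7 ± 16.3 CPM in sense (SD, n = 3 each). Slc32a1, the vesicular GABA transporter gene, did not pass either (-0.48, SE 0.278). These 3 are named after their values were seen. DESeq2 called 1 gene of the list lower. On library totals alone, where the median of all tested genes moved from -0.01 to 0.70, the log2 fold changes of Ndnf (0.04) and Reln (0.20) were positive, so their direction is relative to the TMM scale.

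RNA counts were tested for 5 genes whose proteins are reported to act with Dlx6os1, and 1 was lower, against 4.35% of all tested genes. Smarca4, which encodes the BRG1 chromatin remodeller, averaged 94.6 ± 1.54 CPM in antisense against 122 ± 14.1 CPM in sense (SD, n = 3 each; -0.36, SE 0.0989; edgeR adjusted p = 0.0147). That call was lost without antisense replicate 1, sense replicate 1 or sense replicate 3, and on library totals alone its log2 fold change was 0.37. Smarcc2 (-0.22, SE 0.0898), a subunit of the same complex, and Smc1a (-0.30, SE 0.149), a cohesin subunit, did not pass.

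Other transcription factor genes with a named noncoding RNA beside or across them were set beside Dlx1 and Dlx6. Of 18 such genes 8 were tested, and 0 passed (edgeR; 0 at an unadjusted p under 0.05, and 0 by DESeq2), against 18.2% higher and 4.35% lower over all tested genes, with a median of -0.13 and a highest value of 0.45, that of Nkx2-2 (SE 0.262). Next by p came Pou3f3 (-0.14, SE 0.0967) and Pax6 (0.12, SE 0.0969), neither past the threshold.

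Of the 18 partner RNAs 9 were tested, 3 were higher, 0 were lower and 6 missed the threshold, against 18.2% higher and 4.35% lower over all tested genes, and the median was 0.27. On so short a list these counts are not read against those shares. Zeb2os, the opposite-strand RNA of Zeb2, had 4.54, 4.92 and 8.21 CPM in antisense and 0.158, 1.71 and 1.54 CPM in sense (log2 fold change 2.36, SE 0.467; edgeR adjusted p = 0.0013). Zeb2 itself, a factor that directs interneuron migration, stood at 263 and 284 CPM and did not pass (-0.11, SE 0.0952). In this pair the values of the noncoding RNA did not overlap between the groups and the coding gene did not pass. At the Dlx5/Dlx6 locus the values of the coding gene Dlx6 differed and those of the noncoding RNA overlapped. Zeb2os was tested only through the antisense group, where it is high, and Dlx6 was chosen with this comparison in view. Nothing is therefore read from this contrast.

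Hand2os1 was higher (43.4 ± 6.61 against 24.3 ± 3.89 CPM, SD, n = 3 each; 0.83, SE 0.141; edgeR adjusted p = 0.000314), with no count of Hand2, its coding partner, in any library. Foxd2os was higher as well (1.06, SE 0.348; edgeR adjusted p = 0.0404), a call that was lost whichever library was left out. Zeb2os and Foxd2os reached the cutoff of the filter in too few sense libraries to pass by them, and so were tested only through the antisense group, where they are high. In the 6 pairs with both rows tested, that of Zeb2 alone had a partner past the threshold. Dlx4os, which was not tested, had 11.2 counts in antisense and 15.6 in sense.

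**Figure D4:**
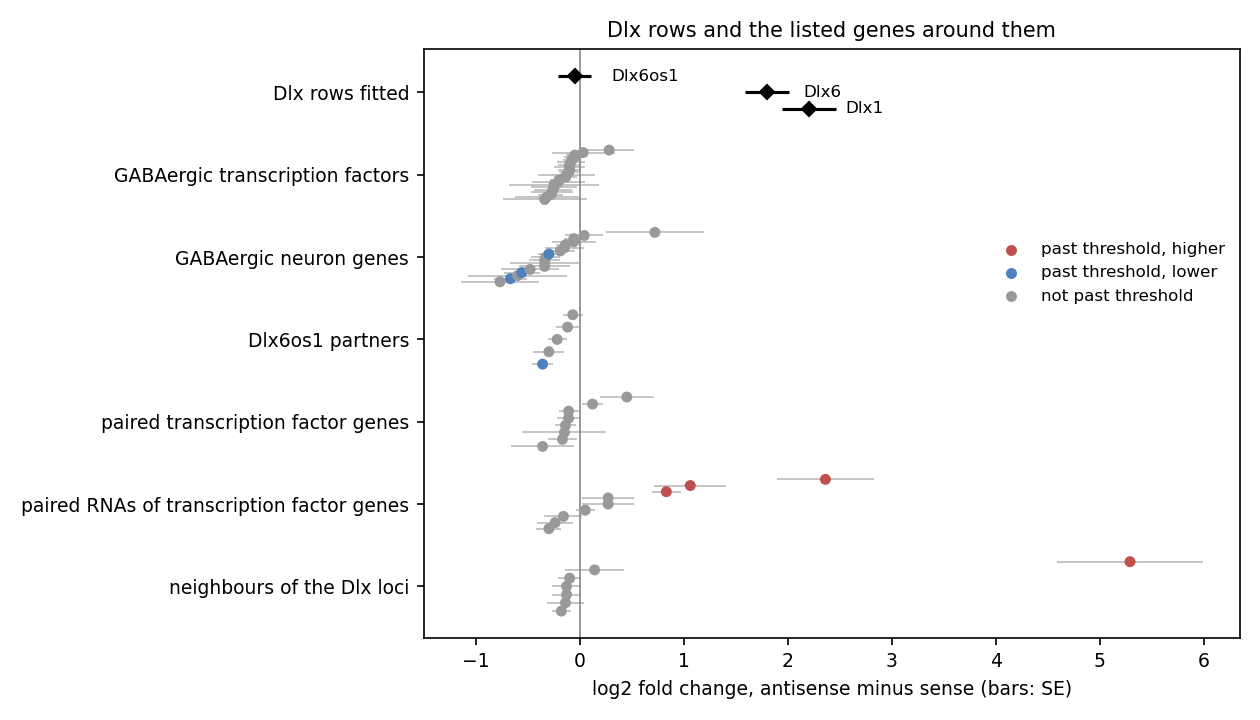
Log2 fold change, antisense minus sense, with its SE, for the 3 Dlx rows that were fitted (black) and for the tested genes of each list (red and blue where past the threshold, grey where not). Dlx1 at 2.20 and Dlx6 at 1.80 stand to the right of all tested GABAergic transcription factors, which run from -0.34 to 0.28, and Dlx6os1 lies at -0.05.

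By the distance between centred log2 CPM profiles over the 6 libraries, 5 of 20048 other tested genes came closest to Dlx1. They were Gm48269 (root mean square distance 0.086, log2 fold change 2.14), Mycbp, which encodes a MYC-binding protein (0.11 and 2.16), Gm13012 (0.122 and 2.76), Gm47950 (0.125 and 2.02) and Gm27209 (0.135 and 2.48). Dlx6 came 241st in that order, at a distance of 0.327. With 6 libraries in 2 groups, this measure mainly finds genes with a group difference of like size.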

How the data were processed

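Of the total RNA of 6 libraries (3 antisense, 3 sense), the authors deposited estimated counts per gene symbol. The submitters' processing notes name Salmon, DESeq and GRCm38, without versions, and whether counting used strand is not given in the sources used here, so reads of Dlx1 and Dlx1as, or of Dlx6 and Dlx6os1, may not be told apart. The authors' deposited comparison table holds, per gene, p-values, log2 fold changes with their errors and the mean normalised signal. It was only set beside the values computed here.

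Estimated counts were rounded for the fit. Rows were filtered with filterByExpr (minimum count 10), scaled by TMM and tested with edgeR 4.0.16 (quasi-likelihood F test, two-sided, antisense minus sense), with Benjamini-Hochberg adjustment over 20049 genes at 0.05. The SE is the log2 fold change over the square root of F. CPM values of the text use the unrounded estimated counts over the TMM-effective library sizes. Count ratios have exact 95% intervals, conditional on the summed counts. The steps were tested on simulated counts with the same spread set for all genes. Of the changed genes, 17.9% were recovered at a 1.5-fold, 61.2% at a 2-fold and 98.5% at a 4-fold change. Small changes of listed genes that did not pass could therefore be missed. Alternatives were library totals, DESeq2 1.42.0, no Gas5 row, minimum counts of 50 or none, a replicate block, each library left out, and a pseudocount of 0.5 for ratios.

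Members and lists were chosen with earlier results of these data known. From each list the text names genes past the threshold, or up to 3 of smallest p where fewer than 3 passed, the 12 RefSeq genes nearest the loci, and the 5 genes nearest Dlx1 in profile. All 6 members were matched by symbol in RefSeq, and 3 in its promoter table. Some genes of the lists enter the counts and are not reported here by name.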

Additional observations from a re-analysis of the deposited data

How the results depend on the processing

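The values of Dlx1 and Dlx6, chosen with this comparison in view, were positive under each of the 12 alternatives, which is no independent support. Without 1 library their log2 fold changes ran from 2.03 to 2.38 and from 1.68 to 1.86, those of Dlx6os1 from -0.22 to 0.03. On library totals alone, Dlx1 was at 2.92, Dlx6 at 2.55 and Dlx6os1 at 0.66, against a median of 0.70 over all genes. The differences of the ratios within a library kept their sign without any 1 library and with a pseudocount of 0.5. Scaled ratios of members not fitted ran from 0.953 to 1.67 for Dlx2, from 0.486 to 0.872 for Dlx5 and from 1.12 to 1.75 for Dlx1as without 1 library, and were 2.07, 1.21 and 2.38 on library totals alone.

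Over all genes, library totals gave 12804 higher and 62 lower genes and a minimum count of 50 gave 1795 and 402, against 3658 and 873. Without 1 library there were 492 to 1100 lower genes (571 without antisense replicate 1, 534 without sense replicate 1, 492 without sense replicate 3). On library totals, higher genes numbered 10 of the GABAergic transcription factors, 5 of the GABAergic neuron genes (0 lower), 2 of the Dlx6os1 partners (0 lower), 5 of the paired transcription factor genes, 6 of their RNAs and 5 of the neighbours. At a minimum count of 50, 1 GABAergic neuron gene was lower, 1 paired RNA higher and 0 neighbours higher, fewer genes being tested, and DESeq2 called 1 GABAergic neuron gene lower. With no filter, 2 neighbours were higher and 1 paired transcription factor gene, Hoxb3, lower. Without 1 library, lower genes numbered 1 to 3 of the GABAergic neuron genes, 0 to 2 of the partners, 0 to 1 of the paired genes and 0 to 1 of their RNAs. Where no cause is named, the cause was not tested.

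Replicate numbers are shared between the groups. Deviations of same-numbered libraries from their group means correlated at 0.051, -0.059 and -0.009, inside the range of differently numbered libraries (-0.132 to 0.142). No shared effect was thus seen, but 3 libraries a group cannot tell whether same-numbered libraries were paired. With a replicate block 3428 genes were higher and 695 lower, with Dlx1 at 2.21 and Dlx6 at 1.81. Depth limits Dlx2, Dlx5 and Dlx1as, with 6 to 36.2 counts a group.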
